A study of Mus musculus with 11 samples.

Results

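The genes described here encode 10 isoforms of 2 enzyme families, 7 of protein kinase C (PKC: Prkca, Prkcb, Prkcd, Prkce, Prkch, Prkci and Prkcz) and 3 of phospholipase D (PLD: Pld1, Pld2 and Pld3), out of 55359 genes counted in each sample. They were matched by symbol in the GENCODE mouse annotation, and the families were taken up because Prkcb and Pld2 had lower counts in the OSM group than in the PBS group. The values of these 2 genes between the treatments are therefore a description without a test. The samples were CD31-positive, CD45-negative vascular endothelial cells, sorted from the retinas of C57BL/6 mice (C57BL/6J in the study's methods) in the oxygen-induced retinopathy (OIR) model. In this model, pups are kept in high oxygen and returned to room air, after which vessels grow pathologically in the hypoxic retina. At postnatal day (P) 12, mice received 0.5 µL of oncostatin M (OSM, 100 ng/µL) or of phosphate-buffered saline (PBS) into the vitreous, and cells were collected at P17. The OSM group held 5 mice (mice 1, 2, 5, 6 and 9) and the PBS group 6 mice (mice 3, 4, 7, 8, 10 and 11), and all mice of both groups went through the OIR model. Each sample held the cells of both retinas of a mouse. Mice 1 to 4 were litter 1, mice 5 to 8 litter 2 and mice 9 to 11 litter 3. Each litter was its own OIR run, so litter and run cannot be told apart, and litter 3 held 1 OSM mouse. By the methods, PBS went into contralateral eyes as a control. The labels, followed here, assign a mouse to 1 treatment.

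PKC enzymes are serine/threonine kinases. The classical isoforms, such as α and β, need calcium and diacylglycerol, the calcium-independent isoforms (δ, ε, η and θ) need diacylglycerol alone, and the atypical isoforms (ι and ζ) need neither and act in cell polarity complexes. Phospholipase D1 and D2 split phosphatidylcholine into choline and phosphatidic acid, a lipid messenger that can be turned into diacylglycerol, which links both families. PLD3 shares their catalytic signature but is an endolysosomal exonuclease of single-stranded nucleic acids. In vascular endothelium, PKCβ is known from work on the diabetic retina and PKCη from cell junctions and barrier function.

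Between 26697990 and 56033479 reads per mouse were counted on genes (median 32500202). All 12 endothelial markers examined, among them Pecam1 (CD31) and Cdh5, had reads in every mouse, and their summed level was 15175 to 21005 CPM (counts scaled to library size). Ptprc, which encodes CD45, had no reads in 6 of 11 mice and at most 22 reads in the others. Of the 10 leukocyte and microglia markers examined, 2 had reads in every mouse, Laptm5 (1010 to 2377 reads) and Coro1a (273 to 1602 reads). The sample of OSM mouse 5 stood apart in the summed level of 10 rod markers, 5050 CPM against 181 to 1682 CPM in the other mice.

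The isoforms of a family resemble each other, so the letters that mark each family are shown first, as a view of how far reads can tell the isoforms apart. For PKC this is the pseudosubstrate, the stretch that blocks the enzyme's own active site in the resting state and carries an alanine in the place of the phosphorylated residue of a substrate. The coding bases of 10 codons around it, read from the GENCODE canonical transcripts on GRCm39, are given from 5′ to 3′, with the alanine codon in capitals.
Prkca: ttcgcccgcaaagggGCGctgaggcagaag
Prkcb: ttcgcccgcaaaggcGCCctccggcagaag
Prkcd: atgaaccgtcgtggaGCCattaaacaggcc
Prkce: aggaagcggcaagggGCTgtcaggcgcagg
Prkch: aggaagcgccaaaggGCTatgcgaagacga
Prkci: atttaccggagagggGCAcgccggtggaga
Prkcz: atctaccgccgtggaGCCagaagatggagg
These stretches lie in exon 1 of Prkca at chr11:108234407-108234436 (minus strand), exon 1 of Prkcb at chr7:121888625-121888654 (plus strand), exon 5 of Prkcd at chr14:30329331-30329360 (minus strand), exon 3 of Prkce at chr17:86781792-86781821 (plus strand), exon 3 of Prkch at chr12:73738360-73738389 (plus strand), exon 5 of Prkci at chr3:31083640-31083669 (plus strand) and exon 5 of Prkcz at chr4:155385438-155385467 (minus strand). The stretches of Prkca and Prkcb, both classical isoforms, matched at 26 of 30 bases. The calcium-independent isoforms Prkce and Prkch matched at 20 of 30, the atypical isoforms Prkci and Prkcz at 19 of 30, and Prkcb and Prkch at 11 of 30. Matches did not follow the classes throughout. Prkcd matched Prkce and Prkch of its own class at 14 and 13 of 30, and the atypical Prkcz at 19 of 30.

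For PLD the shared letters are the HKD motif, whose histidine, lysine and aspartate form the catalytic site. The codons of these 3 residues are in capitals.
Pld1 first motif: CATgagAAGcttgtcattatcGAC
Pld1 second motif: CACagcAAGttgttaattgctGAC
Pld2 first motif: CACgagAAGctcctggtggtaGAC
Pld2 second motif: CACagcAAGatgctcattgcgGAT
Pld3 motif: CACaccAAGttctgggtggtgGAT
These stretches lie in exon 14 of Pld1 at chr3:28130591-28130614 (plus strand), exon 23 of Pld1 at chr3:28174935-28174958 (plus strand), exon 14 of Pld2 at chr11:70443563-70443586 (plus strand), exon 22 of Pld2 at chr11:70446514-70446537 (plus strand) and exon 9 of Pld3 at chr7:27238829-27238852 (minus strand). The letters searched for were found at 2 places in Pld1 and in Pld2 and at 1 place in Pld3. A motif with another residue in the place of 1 of these 3 would not have been found. The first motif matched at 16 of 24 bases between Pld1 and Pld2, also at 16 of 24 between Pld2 and Pld3, and at 10 of 24 between Pld1 and Pld3. Over whole canonical transcripts, the longest run of identical bases in any pair of the 10 genes was 38 bases, between Prkca and Prkcb, and the longest between 2 PLD genes was 20 bases, between Pld1 and Pld2.

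Prkch, the gene of PKCη, was the most abundant PKC transcript in every mouse, and Pld3 the most abundant PLD transcript. Levels are given as reads per kilobase of exon, scaled to library size (RPKM), the only scale on which genes are compared here. Prkch (ENSMUSG00000021108, chromosome 12 of GRCm39, 73631009 to 73824959) had 32.1 ± 7.81 RPKM (SD, n = 11 mice), with a range of 21.2 to 46.4. Its level was above that of 91.4% of the genes tested. Prkci (ENSMUSG00000037643, chromosome 3, 31049886 to 31107108), encoding the atypical PKCι, followed with 3.65 ± 2.48 RPKM (SD, n = 11). Prkcd (ENSMUSG00000021948, chromosome 14, 30317307 to 30349238) and Prkce (ENSMUSG00000045038, chromosome 17, 86474992 to 86965429), which encode the calcium-independent isoforms δ and ε, lay close together. The level of Prkcd was 1.59 ± 0.849 RPKM and that of Prkce 1.54 ± 0.539 RPKM (SD, n = 11). Prkcb (ENSMUSG00000052889, chromosome 7, 121887974 to 122233625), encoding PKCβ, had 0.944 ± 0.766 RPKM (SD, n = 11).

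Prkca and Prkcz were near the detection limit. Prkca (ENSMUSG00000050965, chromosome 11, 107824212 to 108235099), encoding PKCα, had 0.235 ± 0.217 RPKM (SD, n = 11), from 0 to 202 reads per mouse. Prkcz (ENSMUSG00000029053, chromosome 4, 155344575 to 155445909), encoding the atypical PKCζ, had 0.231 ± 0.337 RPKM (SD, n = 11), from 0 to 369 reads per mouse. Each of these 2 genes was without reads in 1 PBS mouse, Prkca in mouse 4 and Prkcz in mouse 7.

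Among the PLD genes, Pld3 (ENSMUSG00000003363, chromosome 7, 27231425 to 27252665) had 45.2 ± 8.62 RPKM (SD, n = 11), a level above that of 94.1% of the genes tested. Pld2 (ENSMUSG00000020828, chromosome 11, 70430857 to 70448938) had 6.90 ± 3.28 RPKM and Pld1 (ENSMUSG00000027695, chromosome 3, 27992788 to 28188692) 1.18 ± 0.619 RPKM (SD, n = 11). Thus, the abundant PLD transcript was that of the exonuclease, and of the 2 lipases Pld2 was the higher in 11 of 11 mice.

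**Figure D1:**
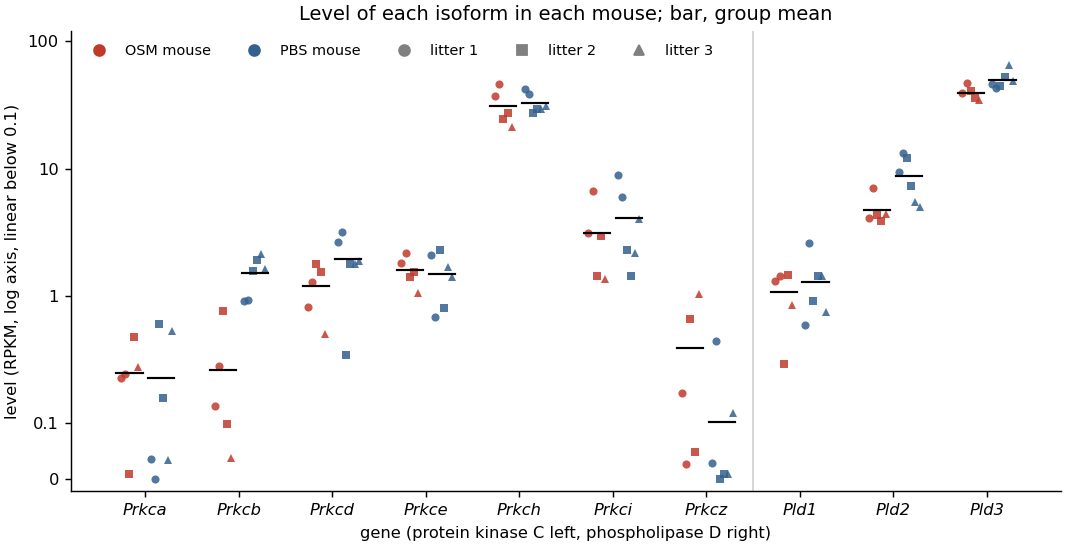
Level of each isoform in each mouse (RPKM on a log axis that is linear below 0.1), with OSM mice in red, PBS mice in blue, the litter as the symbol and the group mean as a bar. Prkch lies between 21.2 and 46.4 RPKM and Pld3 between 34.7 and 65.5 RPKM, whereas Prkca and Prkcz reach down to 0; for Prkcb, the highest OSM mouse has 0.752 RPKM and the lowest PBS mouse 0.916 RPKM.

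The order of levels was tested by the ratio of each pair of isoforms within a mouse, over 21 PKC pairs and 3 PLD pairs, with an exact sign-flip permutation test (two-sided) adjusted over the 24 pairs. The smallest p this test can give is 0.000977. Of the 24 pairs, 18 differed at an adjusted p under 0.05, 15 of PKC and 3 of PLD. Prkch exceeded Prkci, the next in order, by 3.38 ± 0.66 on the log2 scale (SD, n = 11), in 11 of 11 mice (exact permutation adjusted p = 0.00167). Pld3 exceeded Pld2 by 2.82 ± 0.61 and Pld2 exceeded Pld1 by 2.61 ± 0.89 on the log2 scale, each in 11 of 11 mice (exact permutation adjusted p = 0.00167). Among neighbours in the order, Prkce and Prkcd did not differ beyond their spread (mean log2 ratio of Prkce over Prkcd 0.11 ± 1.30, SD, n = 11, exact permutation adjusted p = 0.777). The same held for Prkca and Prkcz (log2 ratio 0.46 ± 3.74, SD, n = 11, exact permutation adjusted p = 0.714). Prkcb differed at the threshold from neither Prkca, Prkcd, Prkce nor Prkcz, with exact permutation adjusted p-values of 0.0618, 0.0516, 0.0618 and 0.0516. The test pooled both treatments. Ratios with Prkcb or Pld2 thus include the OSM mice, whose lower levels led to the choice of these genes. In the PBS mice alone, Prkcb had at least 0.916 RPKM, against at most 0.596 RPKM for Prkca and 0.442 RPKM for Prkcz. In the OSM mice the ranges of these genes overlapped.

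Gene length entered these comparisons. The exons of Prkcb cover 11391 bases in all annotated transcripts together and 3105 bases in the canonical transcript, and those of Prkcd 11348 and 2783 bases. When levels were taken per base of the canonical transcript, 20 of 24 pairs differed, 16 of them also by total exon length and in the same direction, and 3 pairs changed direction. With the canonical length, Prkcd exceeded Prkce (log2 ratio of Prkce over Prkcd -1.64, exact permutation adjusted p = 0.0055), and Prkci no longer exceeded Prkcd (log2 ratio -0.53, exact permutation adjusted p = 0.133). Prkci also no longer passed against Prkcb (log2 ratio 0.93, exact permutation adjusted p = 0.181). Prkcb, in turn, then exceeded Prkca (log2 ratio 3.82, exact permutation adjusted p = 0.00781) and Prkcz (log2 ratio 3.97, exact permutation adjusted p = 0.0111) and was below Prkcd (log2 ratio of Prkcd over Prkcb 1.46, exact permutation adjusted p = 0.034). The places of Prkch and Pld3 at the head of their families were the same with both lengths. Exons of Prkcd share 1622 bases with genes on the opposite strand, and those of Prkce 472 bases with a gene on the same strand, so some of their reads may have been assigned elsewhere or left out.

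As shares of the family, Prkch made up 80.01 ± 3.23% of the summed PKC level (SD, n = 11 mice), with a range of 74.3 to 85.5%, and Prkci 8.32 ± 3.63%, with a range of 4.09 to 15.6%. Prkce held 3.93 ± 1.35%, Prkcd 3.91 ± 1.81%, Prkcb 2.45 ± 2.15%, Prkcz 0.731 ± 1.26% and Prkca 0.645 ± 0.627% (SD, n = 11). By class, the calcium-independent isoforms δ, ε and η together held 82.6 to 91.6%, the atypical isoforms 4.11 to 15.7% and the classical isoforms α and β 0.830 to 6.29%. Thus, transcripts of this class predominated in every mouse of both treatments. Of the PLD sum, Pld3 held 85.0 ± 5.45%, Pld2 12.8 ± 5.06% and Pld1 2.23 ± 1.11% (SD, n = 11). With the canonical length, Prkch held 81.0%, Prkcd 7.16%, Prkci 4.80%, Prkcb 3.997% and Prkce 2.17% of the PKC sum, which placed Prkcd before Prkci.

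Shares by treatment follow from the levels and were not tested. The share of Prkcb was 0.313, 0.491, 2.46, 0.291 and 0.148% in OSM mice 1, 2, 5, 6 and 9. In the PBS mice it was lowest in mouse 3 at 1.62%, had a median of 4.27% and was highest in mouse 10 at 5.79%. The groups overlapped through OSM mouse 5, whose share was above those of PBS mice 3 and 4. The share of Pld2 was 9.17 to 12.6% in the OSM mice and 7.51 to 22.4% in the PBS mice, and PBS mice 4 and 7 held the highest shares, 22.4 and 21.1%. Prkch held 82.2 ± 2.25% of the PKC sum in the OSM mice (SD, n = 5) and 78.2 ± 2.87% in the PBS mice (SD, n = 6). The summed PKC level was 38.0 ± 12.5 RPKM in the OSM mice and 42.2 ± 8.95 RPKM in the PBS mice, and the summed PLD level 45.3 ± 6.23 and 59.9 ± 6.56 RPKM (SD, n = 5 and n = 6).

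**Figure D2:**
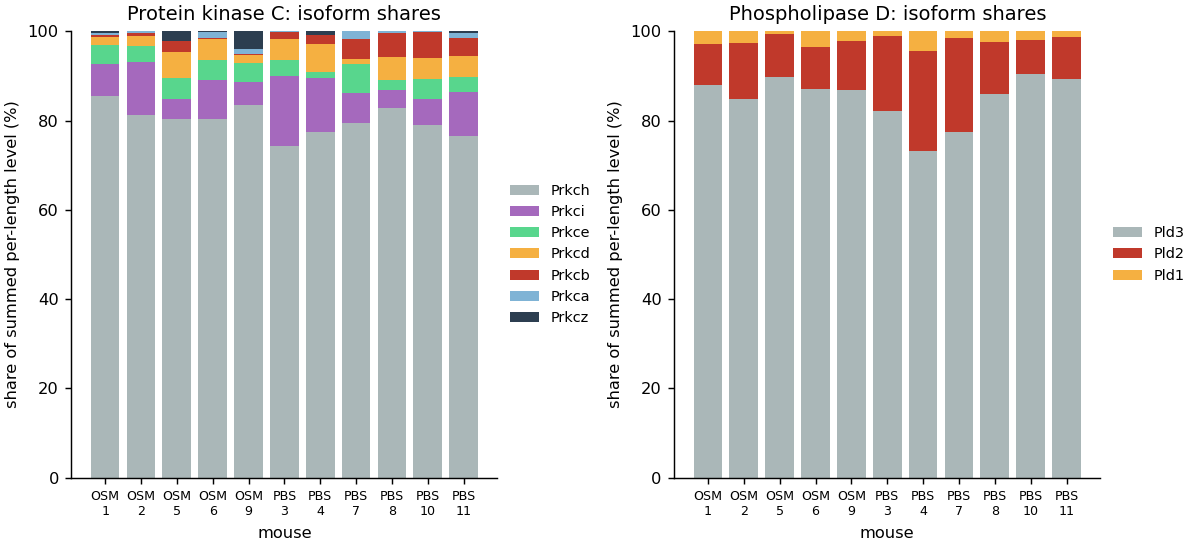
Share of each isoform in the summed per-length level of its family (%), for PKC on the left and PLD on the right, 1 bar per mouse, OSM mice first. Prkch fills 74.3 to 85.5% and Pld3 73.1 to 90.5% of each bar; the Prkcb segment is 0.148 to 2.46% in the OSM mice and 1.62 to 5.79% in the PBS mice, and the Pld2 segment is tallest in PBS mice 4 and 7.

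The question of the study was how endothelial cells of the OIR retina differ after OSM, and each gene was compared between the groups by the quasi-likelihood test of edgeR, with a litter term, over the 13742 genes that passed a filter on low counts. No gene passed an adjusted p under 0.05 (0%), and 573 genes (4.17%) had an unadjusted p under 0.05, whereas DESeq2 called 168 genes. A negative log2 fold change means a lower level in the OSM group. All 10 isoforms passed the filter. Of the 8 isoforms not chosen on this contrast, 5 had a log2 fold change below 0 and 3 above, and 51.6% of all genes tested were below 0. The median log2 fold change of the 8 was -0.23, and that of all genes tested was -0.01. In bulk samples, fewer cells of a type and less RNA per cell cannot be told apart.

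Prkcb, 1 of the 2 genes chosen on this contrast, was lower in every OSM mouse than in any PBS mouse. In the OSM mice its level was 0.136 RPKM in mouse 1, 0.280 in mouse 2, 0.752 in mouse 5, 0.0981 in mouse 6 and 0.0377 in mouse 9. The PBS mice had 0.916 RPKM in mouse 3, 0.933 in mouse 4, 1.56 in mouse 7, 1.90 in mouse 8, 2.14 in mouse 10 and 1.63 in mouse 11. The groups did not overlap, mouse 5 came nearest to the PBS mice, and within the PBS group litter 1 was the lowest. These levels rested on 24 to 251 reads per OSM mouse and 274 to 833 reads per PBS mouse. Non-overlap with OSM below PBS was seen for 0.262% of all genes tested, and Prkcb was the only isoform of the 10 with it. The log2 fold change was -2.68 (SE 0.72), a level 0.156 times that of the PBS group. The within-litter values were -2.21, -2.63 and -5.45 for litters 1, 2 and 3, and in litter 3 the OSM arm was mouse 9 alone. Without mouse 5, the sample with the high rod markers, the log2 fold change was -3.56, and without mouse 9 it was -2.08. The difference between litters in this fold change, which played no part in the choice of the gene, did not pass the test (interaction adjusted p = 0.696, edgeR).

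Pld2, the other chosen gene, was lower in the OSM group by a smaller factor. Its level was 4.07 RPKM in OSM mouse 1, 7.00 in mouse 2, 4.33 in mouse 5, 3.89 in mouse 6 and 4.42 in mouse 9. In the PBS mice it was 9.30 RPKM in mouse 3, 13.1 in mouse 4, 12.1 in mouse 7, 7.25 in mouse 8, 5.43 in mouse 10 and 5.00 in mouse 11. The groups overlapped through OSM mouse 2, whose level was above those of PBS mice 10 and 11, and the other 4 OSM mice were below every PBS mouse. The log2 fold change was -0.89 (SE 0.23), a level 0.538 times that of the PBS group. Litters 1, 2 and 3 gave -1.05, -1.19 and -0.24. In litter 3, the OSM mouse and both PBS mice lay between 4.42 and 5.43 RPKM. Without mouse 5 the log2 fold change was -0.86. The interaction of treatment and litter did not pass the test (adjusted p = 0.813, edgeR).

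For these 2 genes, the 250 bases before the outermost annotated start of the gene are shown, because their levels led to the choice of the families and OSM is known to act through STAT factors. Motif letters found on either strand are in capitals.
Prkcb upstream: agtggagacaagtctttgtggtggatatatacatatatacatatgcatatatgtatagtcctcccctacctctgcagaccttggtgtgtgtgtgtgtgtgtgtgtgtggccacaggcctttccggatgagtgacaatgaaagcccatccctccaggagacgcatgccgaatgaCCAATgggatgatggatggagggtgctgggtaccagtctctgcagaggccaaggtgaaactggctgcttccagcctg
Pld2 upstream: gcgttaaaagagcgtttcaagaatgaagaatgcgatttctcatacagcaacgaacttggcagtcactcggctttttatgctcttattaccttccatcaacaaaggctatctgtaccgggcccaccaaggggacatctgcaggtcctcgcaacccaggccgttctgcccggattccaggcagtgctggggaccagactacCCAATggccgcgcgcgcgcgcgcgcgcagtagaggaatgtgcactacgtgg
The windows lie at chr7:121887724-121887973 (plus strand) for Prkcb and at chr11:70430607-70430856 (plus strand) for Pld2, in GRCm39. The letters searched for were the STAT motif TTCNNNGAA, the GC box GGGCGG, the CCAAT box, the TATA box TATAAA, the cAMP response core TGACG and the AP-1 motif TGANTCA. Each window held a CCAAT box and none of the other motifs. The CCAAT box was present in 5 of the 10 isoforms' windows and in 36.1% of 21770 such windows of protein-coding genes. The STAT motif was in 0 of the 10 windows and in 7.82% of all windows. Absence says only that these letters are not in these bases. The outermost start is not always that of the canonical transcript, which lies at chr7:121888326 for Prkcb and at chr3:28038320 for Pld1. The bases just before these 2 canonical starts were not searched.

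The other 8 isoforms were tested, and none passed an adjusted p under 0.05 by edgeR or, as an alternative, by DESeq2. Pld3 had an unadjusted p of 0.0388, the only 1 of the 8 under 0.05 (edgeR, adjusted p = 1.00). Its level was 39.0 RPKM in OSM mouse 1, 47.3 in mouse 2, 40.9 in mouse 5, 35.7 in mouse 6 and 34.7 in mouse 9. The PBS mice had a lowest level of 42.8 RPKM in mouse 4, a median of 47.1 and a highest level of 65.5 in mouse 10. The other OSM mice were below every PBS mouse, and mouse 2 lay within the PBS range. The log2 fold change of Pld3 was -0.32 (SE 0.13), and litters 1, 2 and 3 gave -0.05, -0.34 and -0.70. Pld3 was the 1 gene of the 8 that was lower in all 3 litters, as were 12.3% of all genes tested. Without OSM mouse 9 its log2 fold change was -0.18 (unadjusted p = 0.207, edgeR), and the unadjusted p was also above 0.05 without mouse 1, 3, 5, 6, 8 or 10.

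Among the calcium-independent PKC isoforms, Prkch had the smallest SE, with a log2 fold change of -0.15 (SE 0.11, unadjusted p = 0.183, edgeR). The variation of Prkch between mice was low: its residual SD on the log2 scale, 0.17, was below that of all but 6.89% of the genes. Prkcd had a log2 fold change of -0.77 (SE 0.55, unadjusted p = 0.188, edgeR), and its direction differed between litters, at -1.495 in litter 1, 1.08 in litter 2 and -1.87 in litter 3. In litter 2 the value rests on PBS mouse 7, with 0.343 RPKM, whereas the other PBS mice had 1.77 to 3.16 RPKM. Without mouse 7 the log2 fold change of Prkcd was -1.22 (unadjusted p = 0.00592, edgeR), without OSM mouse 9 it was -0.40 (unadjusted p = 0.508, edgeR), and without litter 2 it was -1.63 (unadjusted p = 0.000847, edgeR). The adjusted p of Prkcd ranged from 0.8293 to 1.00 over the alternatives. For Prkce the log2 fold change was 0.04 (SE 0.41, unadjusted p = 0.917, edgeR).

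The atypical Prkci had a log2 fold change of -0.43 (SE 0.37, unadjusted p = 0.270, edgeR). Prkcz had the largest positive value of the 10 isoforms, 3.16 (SE 2.08, unadjusted p = 0.157, edgeR), with an unadjusted p of 0.0184 and an adjusted p of 0.425 by DESeq2. Litters 1, 2 and 3 gave -0.70, 3.94 and 4.41, and in litter 3 the OSM arm was mouse 9 alone. Without OSM mouse 5 the log2 fold change of Prkcz was 1.93. OSM mice 5 and 9 had 0.655 and 1.02 RPKM of Prkcz, above every PBS mouse, while OSM mice 2 and 6 had 0.0269 and 0.0487 RPKM. The reads behind these values were 124 and 369 against 6 and 9. The classical Prkca had a log2 fold change of 0.98 (SE 1.62, unadjusted p = 0.556, edgeR), with 3.96 in litter 1, where the PBS mice had 10 and 0 reads, -1.86 in litter 2 and 0.94 in litter 3. The lipase gene Pld1 had a log2 fold change of -0.33 (SE 0.47, unadjusted p = 0.498, edgeR). For Prkca, Prkcd, Prkcz and Pld1, the spread between mice of the same treatment was thus several-fold. It was also several-fold for Prkcb in the OSM mice (0.0377 to 0.752 RPKM) and for Prkce in the PBS mice (0.674 to 2.28 RPKM). Prkci ranged from 1.34 to 6.69 RPKM in the OSM mice and from 1.44 to 8.86 RPKM in the PBS mice.

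**Figure D3:**
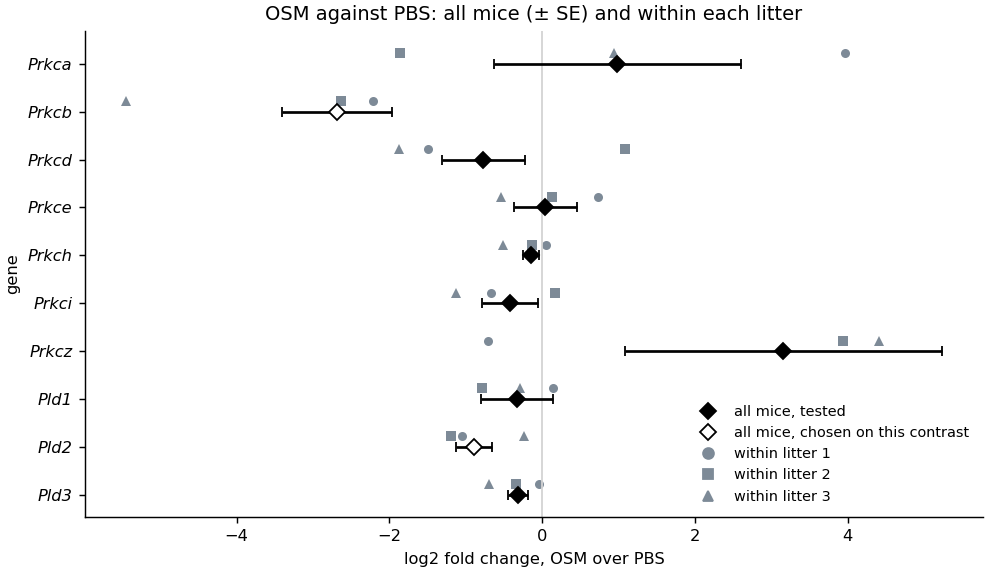
Log2 fold change of OSM over PBS for each isoform, as diamonds with the SE for all mice and as grey symbols for each litter; open diamonds mark both genes chosen on this contrast. The 3 symbols lie left of 0 for Prkcb, Pld2 and Pld3, and the SE is widest for Prkca (1.62) and Prkcz (2.08).

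Litters were compared next, a contrast that did not enter the choice of the genes. Over all genes, 0.102% passed an adjusted p under 0.05 between litters, and 11.4% had an unadjusted p under 0.05. None of the 10 isoforms passed the adjusted threshold, and 2 had an unadjusted p under 0.05, Prkch and Prkci. The level of Prkch was 37.1 RPKM in mouse 1, 46.4 in mouse 2, 42.0 in mouse 3 and 38.3 in mouse 4, all of litter 1. In litter 2 it was 24.6, 27.1, 27.2 and 29.1 RPKM in mice 5, 6, 7 and 8, and in litter 3 it was 21.2, 29.2 and 31.2 RPKM in mice 9, 10 and 11. Every mouse of litter 1 was above every mouse of the other litters, in both treatments (unadjusted p = 0.00046, adjusted p = 0.0843, edgeR). The adjusted p ranged from 0.0364 to 0.280 over 13 alternatives and was under 0.05 in 1 of them, with at least 10 counts required in every mouse.

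Prkci showed a like order, with 6.15 ± 2.37 RPKM in litter 1 (SD, n = 4), 2.02 ± 0.730 in litter 2 (SD, n = 4) and 2.50 ± 1.37 in litter 3 (SD, n = 3). The litters overlapped, since mouse 1 of litter 1 had 3.12 RPKM and mouse 11 of litter 3 had 4.00 RPKM (unadjusted p = 0.00504, adjusted p = 0.179, edgeR). The highest Prkci level, 8.86 RPKM, was in PBS mouse 3. The effect of OSM did not differ between litters for any of the 10 isoforms at an adjusted p under 0.05 or an unadjusted p under 0.05, and 7.65% of all genes had an unadjusted interaction p under 0.05 (edgeR).

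**Figure D4:**
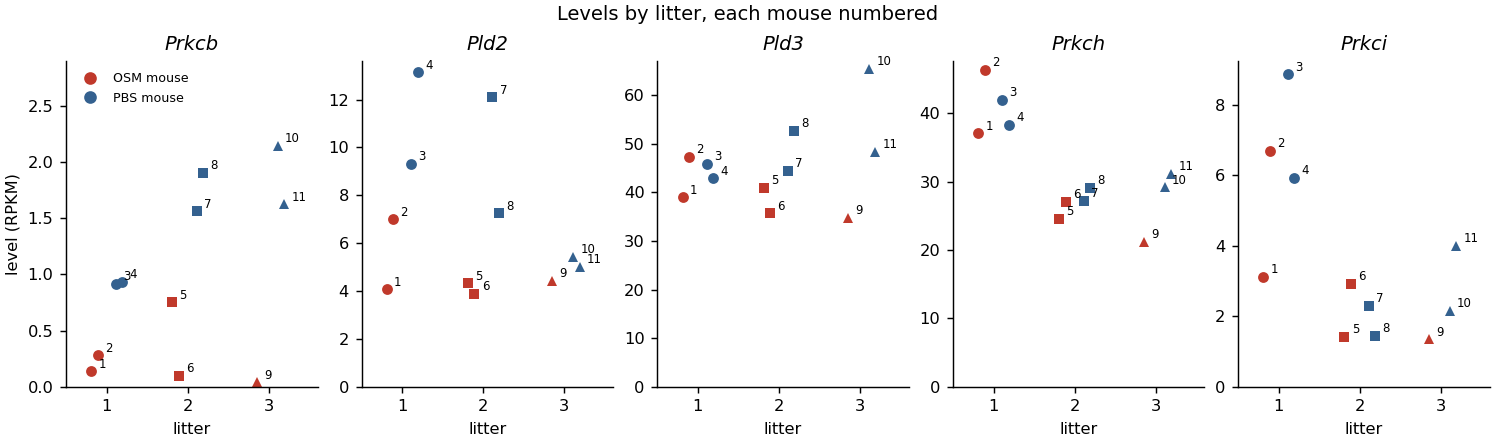
Level (RPKM, axes from 0) of Prkcb, Pld2, Pld3, Prkch and Prkci in each numbered mouse, by litter, with OSM mice in red and PBS mice in blue. For Prkcb the OSM mice lie below the PBS mice in each litter, and for Prkch the 4 mice of litter 1, at 37.1 to 46.4 RPKM, lie above the mice of the other litters, at 21.2 to 31.2 RPKM.

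Further genes of both families were scarce. Prkcq, encoding PKCθ of T cells and platelets, had reads in 4 of 11 mice, and OSM mouse 1 held 129 of them. Pld4 had reads in 2 mice, Pld5 in 3 and Pld6 in 6, with at most 54 reads in a mouse, and these genes were not tested.

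Genes that act before, beside and after both families were followed through 9 lists with 97 genes, of which 88 could be tested. None of the 88 passed an adjusted p under 0.05 by edgeR or by DESeq2. By DESeq2, 7 of the 88 had an unadjusted p under 0.05, as had 1756 of all 55359 genes. That run had no filter on low counts, and 28940 of the 55359 genes had reads, so its share over all genes is not a like background for the 7. At an unadjusted p under 0.05 by edgeR, 2 genes were lower and 1 was higher in the OSM group, against 2.18% and 1.99% of all genes tested. The median log2 fold change of the 88 was -0.06, with 50 below 0 and 38 above. Add3, which encodes adducin 3, a cytoskeletal PKC substrate, had a log2 fold change of -0.56 (SE 0.18, unadjusted p = 0.0112, edgeR), with 7.26 to 14.9 RPKM in the OSM mice and 12.05 to 17.5 RPKM in the PBS mice. Cyth3, which encodes an exchange factor of the ARF GTPases that activate PLD, had -1.07 (SE 0.41, unadjusted p = 0.0240, edgeR). Its level was 0.753 to 5.26 RPKM in the OSM mice and 2.78 to 7.15 RPKM in the PBS mice. Sqstm1, which encodes p62, a scaffold that binds atypical PKC, had 0.15 (SE 0.065, unadjusted p = 0.0437, edgeR), with 62.6 to 71.1 RPKM in the OSM mice and 57.0 to 64.1 RPKM in the PBS mice. The groups of all 3 genes overlapped.

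In the other 6 lists no gene had an unadjusted p under 0.05, and the gene with the highest level of each is given. Prkd2, protein kinase D2, a kinase that PKC phosphorylates, had 38.7 ± 7.13 RPKM (SD, n = 11 mice) and a log2 fold change of -0.11 (SE 0.14). Plcg1, the phospholipase C that makes diacylglycerol below VEGF receptors, had 24.9 ± 6.45 RPKM and a log2 fold change of -0.29 (SE 0.19). Dgkz, a kinase that turns diacylglycerol into phosphatidic acid, had 22.5 ± 6.08 RPKM and a log2 fold change of -0.01 (SE 0.17). Plpp1, a phosphatase of the reverse step, had 23.7 ± 3.52 RPKM and a log2 fold change of 0.01 (SE 0.13). Hsp90ab1, a chaperone of kinases, had 354 ± 29.5 RPKM and a log2 fold change of 0.01 (SE 0.073). Rasgrp3, a diacylglycerol-binding activator of Ras proteins, had 36.2 ± 7.29 RPKM and a log2 fold change of 0.16 (SE 0.15). The differences of Prkd2, Dgkz, Plpp1 and Hsp90ab1 between the treatments were smaller than their SE.

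Genes whose levels followed Prkcb or Pld2 from mouse to mouse were found by Pearson correlation of log2 CPM over the 11 mice, after treatment and litter means had been removed, among 10901 genes with a mean of at least 100 normalised counts. The values are a description, since all genes share the libraries and their depth. Nearest to Prkcb were Msx1 (r = 0.978), a homeobox factor, Adamts9 (r = 0.9499), a metalloprotease, Tyk2 (r = 0.949), a Janus kinase of cytokine receptors, Dazap1 (r = 0.933) and Cnnm4 (r = 0.927). Nearest to Pld2 were Nop16 (r = 0.949), a nucleolar protein, Echs1 (r = 0.934), an enzyme of fatty acid oxidation, Phf20l1 (r = 0.933), Hspb8 (r = 0.933), a small heat shock protein, and Errfi1 (r = 0.931), an inhibitor of EGF receptor signaling.

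Markers of other cells differed between the treatments in part. All 10 mural cell markers had a log2 fold change below 0 (median -0.75), with a summed level of 410 to 832 CPM in the OSM mice and 311 to 1725 CPM in the PBS mice. The log2 ratios of these sums were -0.84, -0.01 and -1.66 for litters 1, 2 and 3, and those of Prkcb were -2.21, -2.63 and -5.45. Of the platelet and erythroid markers, 6 of 7 tested had a log2 fold change above 0, with sums of 369 to 1142 CPM in the OSM mice and 126 to 617 CPM in the PBS mice. At an unadjusted p under 0.05 (edgeR), 5 of the 7 were higher after OSM, against 1.99% of all genes tested, and 0 passed the adjusted threshold. In all 3 litters 5 were higher, against 12.5% of all genes. The log2 ratios of the sums were 0.85, 0.80 and 1.70 for litters 1, 2 and 3. Leukocyte and microglia markers summed to 41.2 to 90.2 CPM in the OSM mice and 64.2 to 134 CPM in the PBS mice. Of the 10, 8 were without reads in at least 1 mouse, whereas Laptm5 and Coro1a had reads in every mouse. Bipolar cell markers, relevant because rod bipolar cells are rich in PKCα, summed to 0.0699 to 24.2 CPM in the OSM mice and 0.461 to 24.03 CPM in the PBS mice, and each of the 10 was without reads in at least 1 mouse. Rod markers summed to 181 to 5050 CPM in the OSM mice and 363 to 1362 CPM in the PBS mice. Their part in the values of Prkcb, Pld2 and the other isoforms was not tested.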

How the data were processed

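Raw counts of reads per gene in 11 mice were deposited by the authors, who made poly(A)-primed, PCR-amplified cDNA without molecular identifiers, read fragments from a single end and used STAR (GRCm39) and featureCounts (GENCODE genes). The kit does not mark strand. PCR copies of a molecule count as separate reads, so errors here are the spread over mice.

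Counts were normalised by TMM (factors 0.972 to 1.03), filtered with filterByExpr by treatment (minimum 10) and fitted with edgeR 4.0.16 in R 4.3.3 (quasi-likelihood, robust) with treatment and litter, with Benjamini-Hochberg adjustment over 13742 genes and a threshold of 0.05. Log2 CPM for differences within litters and for correlations used a prior count of 2. RPKM used the exon length of all GENCODE vM39 transcripts. The tests were tried on simulated data. DESeq2 1.42.0 was an alternative, among other filters, scalings, thinning and leaving out mice or litters. The filter with the full design was added after seeing the data. The genes, lists and tests were chosen with earlier results of these data known. Named are all isoforms, other family genes, per pathway list those with an unadjusted p under 0.05 (else the highest level), and the 5 genes most like Prkcb and Pld2. A gene under this rule is not reported here.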

Additional observations from a re-analysis of the deposited data

Results flagged for a closer look

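A mouse far from the others of its group was looked for in 40 groups of values (levels and family shares of the 10 isoforms, per treatment), and 6 were found. For independent, normally distributed values, chance flags about 1 in 20 such groups. The levels and shares of an isoform are not independent, so no excess over chance can be read from these flags. OSM mouse 2 had 7.00 RPKM of Pld2, and the nearest OSM mouse had 4.42 RPKM. OSM mouse 5 had a Prkcb share of 2.46% of the PKC sum, and the nearest OSM mouse had 0.491%. PBS mouse 7 had a Prkcd share of 0.999%, and the nearest PBS mouse had 4.60%. PBS mouse 4 stood apart in 3 values: a Prkcz level of 0.442 RPKM with the nearest mouse at 0.120 RPKM, a Prkcz share of 0.893% with the nearest at 0.295%, and a Pld1 share of 4.45% of the PLD sum with the nearest at 2.32%.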

How the results depend on the processing

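Between OSM and PBS, 0 genes were called with the reported settings (573 at an unadjusted p under 0.05), 65 without a filter on low counts and 168 with DESeq2. None of the 8 tested isoforms was called under any of the alternatives run. Between litters, 14 genes were called, 109 with at least 10 counts in every mouse and 0 to 69 when 1 mouse was left out. Prkca and Prkcz could not be tested with at least 10 counts in every mouse. The log2 fold change changed sign for Prkca without litter 1 (-0.40), for Prkce without litter 1 (-0.25) and when single mice were left out (-0.20 to 0.34), and for Pld1 when single mice were left out (-0.70 to 0.018). Prkcb ranged from -3.56 to -2.08 and Pld2 from -1.12 to -0.73 when single mice were left out, and both were below 0 in every alternative. The share of Prkcd was 7.16% and that of Prkce 2.17% with the canonical length, and without length correction Pld1 held 6.90%, Pld2 19.2% and Pld3 73.9%. The causes were not tested. In the other 212 values of fold changes the direction did not change, although sizes did (for Prkcz 1.12 to 5.26 when a litter was left out). The side of the threshold did not change for the 8 tested isoforms. It was not assessed for Prkcb and Pld2, which were not tested. The other 135 values of shares moved by less than the SD between mice. Prkca and Prkcz had 0 to 369 reads per mouse, and thinning all libraries to the smallest gave log2 fold changes of 0.92 and 3.27.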

Other observations

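After treatment and litter means had been removed, the highest correlation between 2 isoforms over the 11 mice was that of Prkcb and Pld3 (r = 0.744), and the lowest that of Prkce and Prkcz (r = -0.69). All values share libraries and depth. Markers of Müller glia and astrocytes summed to 358 to 850 CPM per mouse, and those of amacrine and ganglion cells to 222 to 290 CPM, with OSM and PBS mice overlapping in both. Of the 10 markers in each list, 7 and 6 were without reads in at least 1 mouse. In the first list, Apoe (4990 to 16583 reads per mouse) and Glul (5360 to 10519) had the most reads. Aqp4 was without reads in 9 mice and Gfap in 7.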
